A study of Schizosaccharomyces pombe with 13 samples.

Results

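The gene xap5 of the fission yeast Schizosaccharomyces pombe encodes a conserved nuclear protein, and the transcripts of cells without it were set against those of wild type. The comparison rests on 7 of the 13 libraries of the study, 3 from the xap5 deletion and 4 from wild type. In the deletion strain KanMX4 stood in place of xap5. The label of this strain gives the mating type h+ and the alleles ade6-M216, ura4-D18 and leu1-32 in the ED668 background, and wild type was labelled with the same mating type, alleles and background, so that both strains carry the auxotrophic markers. All cells were haploid, started overnight in YES at 30 °C, passed to the minimal medium EMM50 at 37 °C and were taken in exponential growth. How many clones each strain represents is not stated. Total RNA was depleted of ribosomal RNA, and libraries that keep the strand were primed at random and read as single reads of 100 bases, with a stated mean of 11.8 M reads per library. The question of the series is whether Xap5, together with the histone variant H2A.Z, holds back aberrant transcripts.

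RNA polymerase II starts transcription at many places besides the promoters of genes. Nucleosomes, histone deacetylases and RNA decay by the exosome keep such starts and their products low, and when these layers fail, RNA appears antisense to genes, in the gaps between genes and from the long terminal repeats (LTRs) that retrotransposons left in the genome. In fission yeast, neighbouring genes often converge and their transcripts overlap at the ends, so a longer transcript of one gene is antisense to the next. The main stress pathway of this yeast ends in the transcription factor Atf1, and the factor MBF drives genes at the entry into S phase.

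All values below are log2 fold changes of the xap5 deletion over wild type as the authors deposited them, without a standard error, and the base of 2 is taken from the convention of edgeR. A feature is called higher or lower where the deposited adjusted p was under 0.05. Values per library were not used here, so overlap of the libraries cannot be shown, and the spread behind an adjusted p may be technical in part, because no label says that the libraries came from separate cultures. A sense entry is an annotated gene or noncoding RNA read on its own strand. Of the 5747 sense entries 21.1% were higher and 20.6% lower, with a median fold of −0.01.

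The entry of the deleted gene was low, and some genes of the M mating type were low as well although both strains are labelled h+. The gene xap5, with the identifier SPCC1020.12c (III 755252 to 756290, plus strand), fell by 3.11 on the log2 scale in the authors' deposited table (adjusted p = 5.84e-14). Its only intron fell by 7.00 (III 755406 to 755468, adjusted p = 4.667e-05). Of 15 M mating-type genes listed, 12 were matched to a sense entry. Of the 12, 6 were lower and 1 was higher, the carboxypeptidase gene sxa2, with a median of −0.42. The lower ones were SPMTR.04, mat3-Mc and mat1-Mc, entries of the M regulator Mc that share their sequence and so cannot be told apart, the M-factor pheromone gene mfm2, and the pheromone processing and export genes mam4 (−0.48) and mam1 (−0.31). Of 11 P mating-type genes listed, only 4 were matched to a sense entry, and the rest could not be read. Of the 4, map1 for the P regulator (1.28) and map3 for the M-factor receptor (0.53) were higher and the other 2 were not called. The strains therefore differed in M transcripts in a way that the labels do not give, and the part of mating type in the results below was not tested.

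Several entries beside the mating-type genes were lower as well. On chromosome II, between mat1-Mc (II 2114482 to 2115027) and mat3-Mc (II 2132849 to 2133394), the predicted urea transporter gene SPBC23G7.13c had −3.76, the noncoding RNA SPNCRNA.389 −2.42 and the flavin oxidoreductase gene SPBC23G7.10c −1.33 in the authors' deposited table, all called lower. The whole sequence of SPNCRNA.389 recurs elsewhere in the genome, so its fold cannot be assigned to this place. The ribosomal protein gene rpp202, between mat1-Mc and mat3-Mc as well, was also lower, by a smaller fold (−0.64). The proteasome gene rpt6 (0.08), the DNA repair gene mag2 (0.27) and SPBC23G7.14 (−0.11) lie in the same stretch and were not called. Gaps at II 2122818 to 2123086 (−3.93) and II 2133395 to 2134980 (−3.74) were lower, and the gap just before mat1-Mc at II 2113454 to 2114218 was higher (3.02). Next to mfm2 on chromosome I, SPAC513.04 was the lowest entry with a called fold (−5.56), while SPAC513.02 on its other side was higher (2.71).

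**Figure D1:**
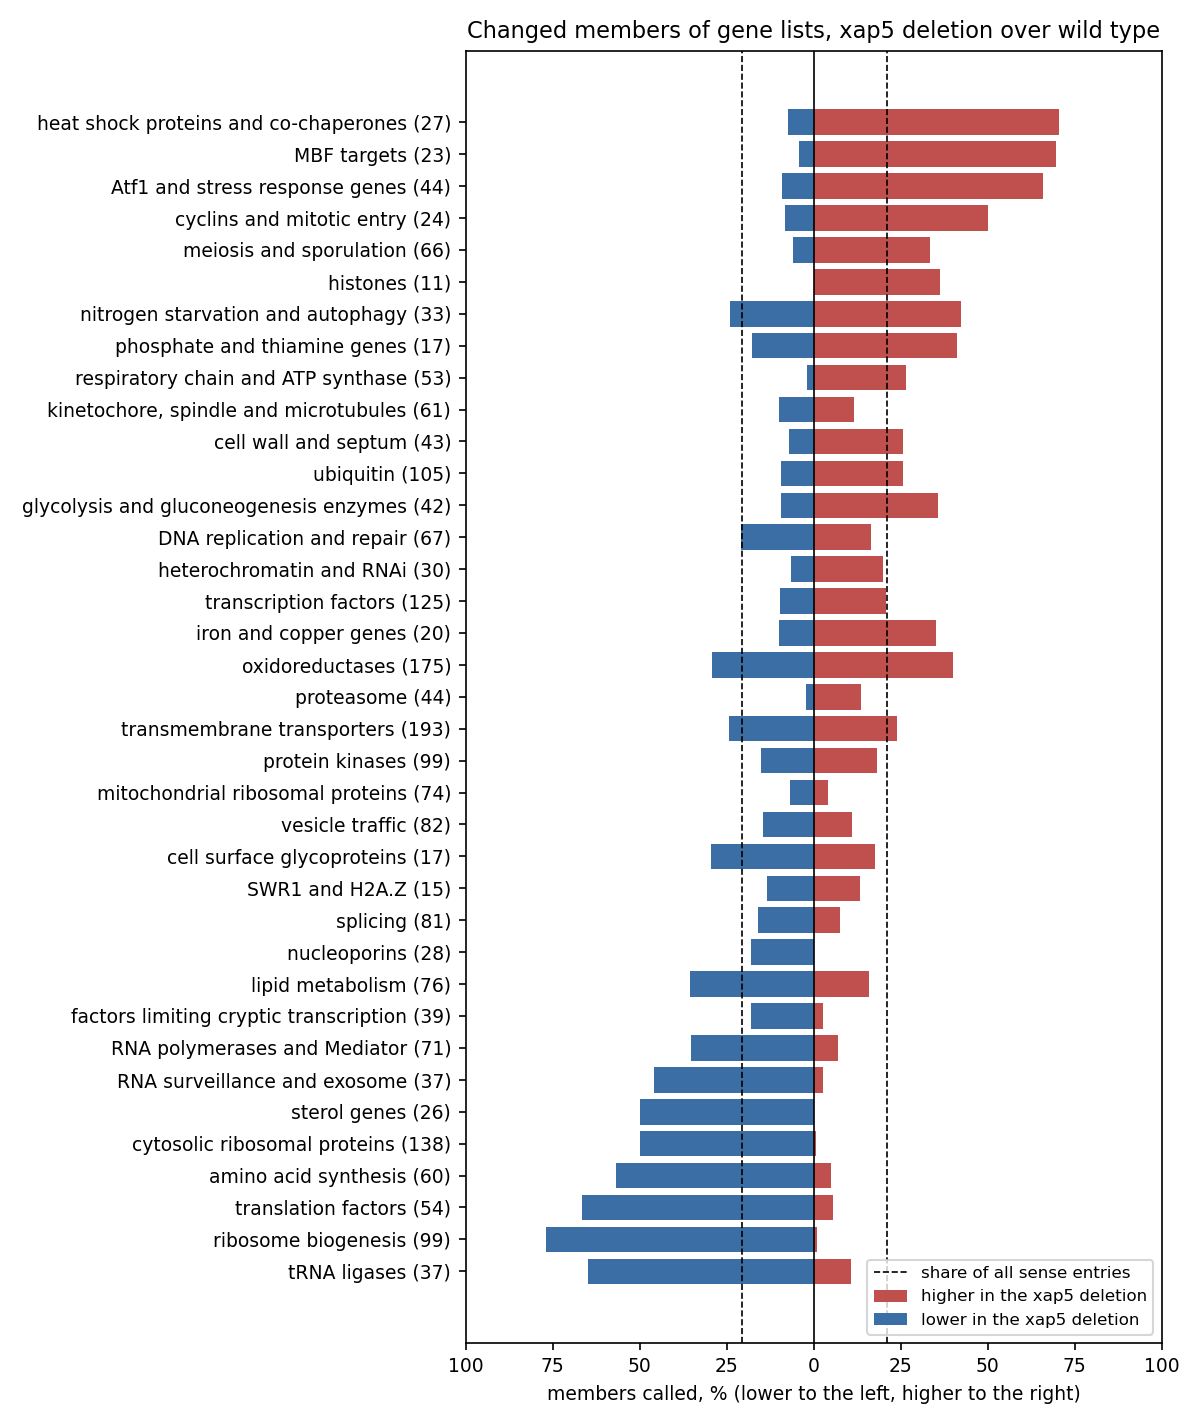
Members of each gene list that were called higher (right) and lower (left) in the xap5 deletion against wild type, as a percentage of the members in the deposited sense table (their number in parentheses), with the lists of functional groups down the page and dashed lines at the shares of all sense entries. Ribosome biogenesis has 76.8% lower and 1.01% higher, and MBF targets have 69.6% higher and 4.35% lower.

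Most genes switched on for S phase were higher in the xap5 deletion. Of 23 MBF targets, genes switched on at the entry into S phase, 16 were higher and 1 was lower, with a median fold of 0.88. Named by their adjusted p or fold, the higher ones include cdm1 for a DNA polymerase delta subunit (2.32), the replication licensing genes cdt1 (2.00) and cdc18 (1.73), the mitotic inhibitor kinase gene mik1 (1.99) and cdc22 for the large subunit of ribonucleotide reductase (1.51). The lower one was suc22 for the small subunit (−0.37).

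Other cell cycle genes moved less uniformly. Of 24 genes for cyclins and mitotic entry 12 were higher and 2 lower, with a median of 0.36. The higher ones include the S-phase cyclin gene cig2 (0.88), rum1 for an inhibitor of the cyclin-dependent kinase (0.75), slp1 for the activator of the anaphase-promoting complex (1.45), the phosphatase gene pyp3 (1.06) and the Polo kinase gene plo1 (0.52), whereas the kinase gene cdc2 (−0.42) and the cyclin gene cig1 (−0.55) were lower. Of 67 genes of DNA replication and repair 11 were higher (16.4%) and 14 lower (20.9%), not far from all entries (21.1% and 20.6%). Here the helicase subunit genes mcm2 (−0.43), mcm3 (−0.54), mcm4 (−0.31) and mcm7 (−0.48) were lower, in contrast to the licensing genes above. Of 61 kinetochore, spindle and microtubule genes 7 were higher (11.5%) and 6 lower (9.84%), or 3 and 4 at an adjusted p under 0.01. Both shares were below those of all entries. Among the called genes were the kinesin genes klp5 (0.63) and klp8 (0.81) and the alpha-tubulin gene nda2 (−0.55).

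Most chaperone and stress genes were higher, and the chaperones had the larger median fold. Of 27 heat shock proteins and co-chaperones 19 were higher and 2 lower, with a median of 1.21, and of 44 genes of Atf1 and the stress response 29 were higher and 4 lower, with a median of 0.87. The Hsp70 gene ssa2 had 3.57, the cyclophilin gene wis2 3.53, the co-chaperone gene sti1 2.90 and the disaggregase gene hsp104 2.56 in the authors' deposited table. All libraries came from cells at 37 °C.

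Genes for protein kinases and transcription factors had shares below those of all entries in both directions (21.1% higher and 20.6% lower). Of coding genes alone 18.6% were higher and 23% lower, and beside these the share of higher transcription factor genes was not below. Of 99 protein kinase genes 18 were higher (18.2%) and 15 lower (15.2%). The MAP kinase gene spk1 (1.60), the regulatory subunit of protein kinase A, cgs1 (1.03), and srk1, whose product is activated by the stress MAP kinase (0.94), were among the higher, and ppk32 (−0.62) and rio1, a kinase gene of ribosome maturation (−0.58), among the lower. Of 125 transcription factor genes 26 were higher (20.8%) and 12 lower (9.6%). Here atf1 (1.77), ste11, the switch to sexual development (2.01), and rsv2 (1.74) were among the higher, and cbf12 of the CSL family (−0.89) and tfb1 of the general factor TFIIH (−0.49) among the lower.

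Metabolic genes divided by function. Of 175 oxidoreductase genes 70 were higher and 51 lower, so both shares (40% and 29.1%) stood above those of all entries. The predicted 3-hydroxyacyl-CoA dehydrogenase gene SPAC4H3.08 (4.32), SPAC186.08c (3.45), the succinate-semialdehyde dehydrogenase gene ssd2 (3.03) and the aldehyde dehydrogenase gene atd1 (2.59) were higher, and the alcohol dehydrogenase gene adh4 (−1.57), the glycerol-3-phosphate dehydrogenase gene gpd2 (−0.99) and the glutamate dehydrogenase gene gdh1 (−0.98) were lower. Of 42 genes listed for glycolysis and gluconeogenesis, which include galactose and hexose transporter genes, 15 were higher and 4 lower. Among the higher ones were the pyruvate decarboxylase gene pdc201 (3.18) and the galactose genes gal10 (2.02) and gal1 (1.48). Of 53 genes of the respiratory chain and ATP synthase 14 were higher and 1 lower, with nde1 for an NADH dehydrogenase at 0.94 and qcr8 for a subunit of complex III at 0.69. Sterol genes moved the other way, with 13 of 26 lower and 0 higher (16 and 0 at an unadjusted p under 0.05 in the authors' edgeR values), including the desaturase gene erg31 (−1.20), the isomerase gene idi1 (−0.72) and the lanosterol synthase gene erg7 (−0.65). The list also holds hem13 of haem synthesis (−1.18).

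Genes for uptake changed in both directions, at shares near those of all entries (21.1% higher and 20.6% lower). Of 193 transmembrane transporter genes 46 were higher (23.8%) and 47 lower (24.4%), or 38 and 37 at an adjusted p under 0.01. Higher in the xap5 deletion were mfc1 of the major facilitator family (6.05), the amino acid permease gene agp3 (4.73), the hexose transporter gene ght3 (2.80), the oligopeptide transporter gene opt3 (1.75) and the sugar transporter gene sut1 (1.71). Lower were SPBC23G7.13c near mat1, the biotin transporter gene vht1 (−1.70), the iron and zinc transporter gene fet4 (−1.68) and the ammonium transporter gene amt1 (−1.56). Nitrogen starvation and autophagy genes also moved both ways, with 14 of 33 higher, including the vacuolar protease gene isp6 (1.66), the invertase gene inv1 (2.08) and the autophagy genes atg13 (0.74) and atg8 (0.44), and 8 lower, including the amino acid permease genes isp5 (−0.78) and per1 (−0.79).

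Genes of ribosome production and translation were lower in large part, by small folds. Of 99 genes of ribosome biogenesis 76 were lower and 1 higher (median −0.54), of 138 cytosolic ribosomal protein genes 69 were lower and 1 higher (median −0.34), and of 54 translation factor genes 36 were lower and 3 higher (median −0.47). Among them efg1 of rRNA processing had −0.83, the eIF2B subunit gene tif223 −0.80 and the release factor gene erf1 −0.69. No called member of these 3 lists fell by 1 or more on the log2 scale. Of 71 genes of RNA polymerases and Mediator 25 were lower and 5 higher. Those with the lowest folds encode subunits of RNA polymerase I, some of them shared with other polymerases, namely rpb8 (−0.86), rpa12 (−0.84), rpc40 (−0.80), nuc1 for the largest subunit of RNA polymerase I (−0.79) and rpa43 (−0.77). One of the higher ones was maf1, a repressor of RNA polymerase III (0.66).

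Transfer RNA ligases separated by compartment. Of 37 such genes 24 were lower and 4 higher, with a median of −0.59. All 23 members of the list not described as mitochondrial alone, among them trl1 of tRNA splicing and the cofactor asc1, were lower (median −0.66), with drs1 for aspartate at −0.81, nrs1 for asparagine at −0.79 and irs1 for isoleucine at −0.76. Of the 14 described as mitochondrial alone 4 were higher, 1 was lower and 9 were not called, with a median of 0.06. The higher ones were SPBC24C6.03 for proline (0.96), SPCC576.06c for tyrosine (0.71), msm1 for methionine (0.64) and msw1 for tryptophan (0.54), and the lower one was vrs2 for valine (−0.41). Mitochondrial ribosomal protein genes had 3 higher and 5 lower of 74, with a median of −0.04, beside the median of −0.34 for the cytosolic ones. Genes of amino acid synthesis were lower in 34 of 60 cases and higher in 3, among the lower ones aro2 for chorismate synthase (−1.03), his3 (−0.97) and his2 (−0.79) of histidine synthesis, and leu1 (−0.74), which is a marker locus mutated in both strains.

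Genes for the machinery that limits aberrant RNA had small changes, and of the lists named next RNA surveillance had a share of lower genes above that of all entries (20.6%). Of 37 genes of RNA surveillance and the exosome 17 were lower (45.9%) and 1 higher, including mmi1, which directs meiotic transcripts to decay (−0.77), the helicase gene sen1 (−0.61), the poly(A)-binding protein gene pab2 (−0.58) and the nonsense-mediated decay gene upf1 (−0.51). In the next 3 lists both shares were below those of all entries. Beside coding genes alone (18.6% higher and 23% lower), this does not hold for the higher genes of heterochromatin and RNAi. Of 39 genes for factors known to limit cryptic transcription 7 were lower (17.9%), among them the histone deacetylase gene clr6 (−0.58), the histone chaperone gene nap1 (−0.72) and the remodeller gene hrp1 (−0.56), and 1, nhp6, was higher (0.90). Of 15 genes of SWR1 and H2A.Z, the complex that places the variant and the variant itself, 2 were higher and 2 lower (13.3% each). Of 30 genes of heterochromatin and RNAi 6 were higher (20%) and 2 lower (6.67%), with clr4 for the H3K9 methyltransferase at 0.28 and swi6 for the HP1 protein at −0.42. Histone genes were higher in 4 of 11 cases and lower in 0 (the same counts at an unadjusted p under 0.05 in the authors' edgeR values), with hhf3 for histone H4 at 0.80. Splicing genes (6 higher and 13 lower of 81) and nucleoporins (0 higher and 5 lower of 28, and 1 and 6 at an unadjusted p under 0.05 in the authors' edgeR values) had shares below those of all entries in both directions.

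Further groups differed in how far their shares lay from those of all entries (21.1% higher and 20.6% lower). Of 105 genes of the ubiquitin system 27 were higher (25.7%) and 10 lower (9.52%), with the polyubiquitin gene ubi4 at 1.40 and the protease gene wss2 at 1.24. Of 44 proteasome genes 6 were higher (13.6%), including rpn11 (0.39) and nas6 (0.50), and 1 was lower (2.27%). Of 76 genes of lipid metabolism 12 were higher (15.8%) and 27 lower (35.5%), among them the esterase gene say1 (1.73) and the sphingoid base kinase gene lcb4 (−0.74). Of 43 cell wall and septum genes 11 were higher (25.6%) and 3 lower (6.98%), with the septum glucanase genes eng1 at 2.33 and agn1 at 1.61 and the septation gene uds1 at 1.68. Of 17 cell surface glycoprotein genes 3 were higher (17.6%) and 5 lower (29.4%), or 2 and 1 at an adjusted p under 0.01. Of 66 genes of meiosis and sporulation 22 were higher (33.3%) and 4 lower (6.06%), including mei2, the RNA-binding switch into meiosis (1.25). Iron and copper genes were higher in 7 of 20 cases (35%) and lower in 2 (10%), with the copper regulator gene cuf1 at 0.98. Phosphate and thiamine genes were higher in 7 (41.2%) and lower in 3 (17.6%) of 17 cases. Of 82 vesicle traffic genes 9 were higher (11%) and 12 lower (14.6%). The repeated wtf elements (19 higher, or 76%, and 2 lower of 25) and Tf2 elements (12 higher, or 92.3%, and 0 lower of 13, and 13 and 0 at an unadjusted p under 0.05 in the authors' edgeR values) share sequence, and of the 7 wtf entries without shared or overlapping sequence 3 were higher and 2 lower.

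Shares differed between classes of entry. Noncoding RNAs were higher in 217 of 564 cases and lower in 16 (38.5% and 2.84%), with a median of 0.52, against 18.6% and 23% of 5040 coding genes with a median of −0.05. Sequence orphans, coding genes with no recognised relative, were higher in 30.1% and lower in 6.99% of 286 cases. Entries described as dubious were higher in 28 of 52 cases and lower in 1. Among coding genes those without introns were higher in 22.6% of 2669 cases, and those with 1 intron in 14.2% of 1058. At 2-fold or more, 473 sense entries were higher and 60 lower. Some of the genes named here overlap another entry on the same strand, so that reads may be counted for either. They include xap5, SPCC1020.13c, SPAC27D7.11c, ssa2, agn1, atf1, isp6, tps3, pmp20, gdh1, nde1, erf1, pab2 and msw1. For 2 entries, the pseudogene SPBPB21E7.06 and the dubious SPBC3E7.17, the deposited fold is out of the range of read ratios, as for a group without reads, and no fold is given.

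**Figure D2:**
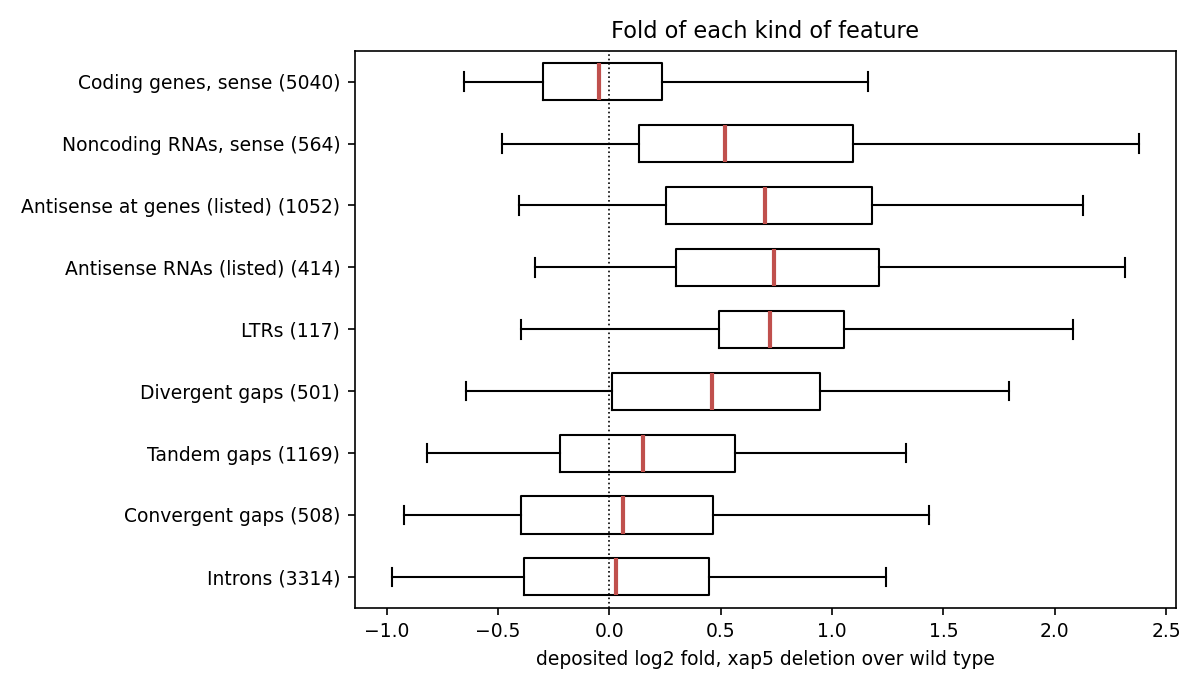
Deposited log2 fold of the xap5 deletion over wild type for 9 classes of feature, with boxes from the lower to the upper quartile, the median as a line and whiskers from the 5th to the 95th percentile. Medians lie at −0.05 for coding genes, 0.52 for noncoding RNAs, 0.72 for LTRs, 0.46 for divergent gaps and 0.03 for introns.

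Strongly higher genes lay side by side in 8 places. Runs of 3 or more adjacent coding genes that were each called with a fold of at least 2 held 28 genes in 8 runs, all of them higher, and no run of lower genes was found. At this minimum fold 473 sense entries were higher and only 60 lower, so lower genes had little room to form runs. Whether the number of runs exceeds that of randomly placed genes was not tested. The run at II 58136 to 62956 holds the enolase gene eno102 (3.86), SPBPB21E7.02c of the phosphoglycerate mutase family (2.55), SPBPB21E7.10 (4.85) and SPBPB21E7.11 (3.39). The run at I 5496844 to 5503291 holds SPAC869.09 (3.31), the protein repair gene pcm2 (1.97), the alpha-galactosidase gene mel1 (2.36) and hry1 (1.52). Another at II 197660 to 209641 joins fbp1 for the gluconeogenic fructose-1,6-bisphosphatase (1.59), wwm3 (1.41), wwm2 (1.44) and the trehalase gene ntp1 (2.29). The others hold tps3 for a trehalose synthesis subunit (3.04), gal10 and gal1 with tgd1 (1.34), rds1 (3.24), SPAC11D3.01c (3.87), and the peroxidase gene pmp20 (2.31). Overlapping transcripts on opposite strands occur within some runs, such as rds1 and SPAC343.20.

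Promoters in some of the gene groups often carry short motifs of the factors known to drive them. Motifs were searched on both strands from 250 bases before to 50 bases after the gene start of 5039 coding genes, in RefSeq sequence of assembly ASM294v3. The MCB motif of MBF, ACGCGT, was in 43.5% of promoters of MBF targets and in 3.25% of all. A heat shock element core, GAANNTTC, was in 48.1% of the chaperone list and in 11.1% of all. The HomolD box, CAGTCACA, was in 63.8% of cytosolic ribosomal protein genes and in 2.72% of all. HomolE, ACCCTACC, was in 29.7% of the same genes and in 1.63% of all. The next 2 motifs were in few list members. The TR box of Ste11, TTCTTTGTT, was in 2 of 33 nitrogen starvation genes (6.06%) and in 1.96% of all. The stress element CCCCTC was in 3 of 42 glycolysis and gluconeogenesis genes (7.14%) and in 2.14% of all. A promoter may hold several motifs, and motifs may overlap. Since the lists are made of known targets, these shares describe the lists, and among the lower ribosomal protein genes 62.3% held HomolD.

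The core of the Atf1 site, TGACGT, was in a larger share of higher than of lower coding genes, and of the motifs searched it had the largest such difference. It was present in 13.6% of 938 higher coding genes (128 promoters), in 3.97% of 1159 lower ones (46 promoters) and in 5.89% of all 5039. The median fold of all genes with this motif was 0.27, beside −0.05 for all coding genes. For HomolD the shares were 1.07% of higher and 5.09% of lower genes. The MCB motif was in 3.41% of higher and 2.76% of lower genes.

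Of each of 4 motifs the promoter of 1 changed gene is printed, 5′ to 3′ on the strand of the gene and ending at the base before its start, with the motif in capitals in either direction, since these show where the site lies. They are from cdt1 (II 477142 to 477391, plus strand, fold 2.00), hsp16 for a small heat shock protein (II 2660993 to 2661242, minus strand, 3.70), the catalase gene ctt1 (III 58834 to 59083, minus strand, 2.59) and rps1201 for a ribosomal protein (III 552924 to 553173, plus strand, −0.85).
cdt1, MCB: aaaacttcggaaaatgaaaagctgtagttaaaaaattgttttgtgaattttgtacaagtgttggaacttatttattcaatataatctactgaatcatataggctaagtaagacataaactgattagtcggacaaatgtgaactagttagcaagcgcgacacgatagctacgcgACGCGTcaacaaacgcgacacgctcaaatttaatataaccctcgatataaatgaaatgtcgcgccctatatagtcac
hsp16, heat shock element: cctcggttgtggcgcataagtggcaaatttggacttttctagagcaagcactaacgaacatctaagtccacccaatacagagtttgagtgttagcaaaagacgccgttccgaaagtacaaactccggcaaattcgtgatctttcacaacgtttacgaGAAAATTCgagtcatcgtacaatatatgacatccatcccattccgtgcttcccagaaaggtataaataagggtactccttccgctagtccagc
ctt1, Atf1 site core: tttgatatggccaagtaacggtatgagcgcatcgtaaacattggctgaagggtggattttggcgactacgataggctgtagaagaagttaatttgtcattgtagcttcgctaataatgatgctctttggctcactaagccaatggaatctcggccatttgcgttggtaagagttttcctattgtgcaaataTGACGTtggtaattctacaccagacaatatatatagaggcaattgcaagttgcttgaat
rps1201, HomolD: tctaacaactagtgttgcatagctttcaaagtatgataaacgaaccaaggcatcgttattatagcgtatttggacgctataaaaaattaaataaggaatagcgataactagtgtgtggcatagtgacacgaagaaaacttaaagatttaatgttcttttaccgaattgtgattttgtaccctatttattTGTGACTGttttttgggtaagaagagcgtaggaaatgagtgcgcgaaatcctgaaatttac

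Antisense signal at genes was mostly higher in the xap5 deletion. By its header the deposited antisense table shows entries past a p of 0.01 against wild type in the comparisons of the study, so its shares describe a set chosen in part by this contrast. Of 1052 genes with listed antisense signal, 237 were higher (22.5%) and 8 lower (0.76%), with a median fold of 0.70 and 84% above 0. Of 414 listed annotated antisense RNAs 230 were higher (55.6%) and 16 lower (3.86%), with a median of 0.74. In sense the antisense-higher genes had shares near those of all entries. Of the 233 with a sense entry 41 were higher (17.6%), 52 lower (22.3%) and 140 not called.

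The largest antisense folds lay at genes of varied roles. Antisense signal had a fold of 7.05 at hsp3102, a gene of the ThiJ family (adjusted p = 1.08e-11), whose sense entry was higher too (2.93). The annotated RNA SPNCRNA.613, which lies antisense over 574 bases of hsp3102 (I 148362 to 149005, plus strand), was lower (−1.08, adjusted p = 0.0126). At the cell surface glycoprotein gene pfl8 it had 4.64 and at mug20 4.45, with sense entries not called (0.03 and 0.63). At SPCC1020.13c, a phospholipase gene whose end overlaps the start of xap5 by 41 bases, antisense had 4.21 (adjusted p = 1.23e-53) while the sense entry had −0.14. Here KanMX4 was put in the adjoining gene, and its part in this signal was not tested. The Hsp90 gene hsp90 had 3.09 antisense beside 2.72 in sense.

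Single genes of many roles had higher antisense signal, while the counts over their lists were mixed. Of the listed members, antisense was higher at 6 of 18 kinetochore, spindle and microtubule genes, 4 of 9 genes for factors limiting cryptic transcription, 2 of 13 RNA surveillance genes, 2 of 8 nucleoporin genes and 0 of 11 genes of heterochromatin and RNAi (3 at an unadjusted p under 0.05 in the authors' edgeR values), beside 22.5% of all listed genes. In the authors' deposited antisense table it was higher at the spindle pole body gene sad1 (2.06), the kinesin gene klp3 (1.95), cph1 of a Clr6 complex (1.99), the SAGA acetyltransferase gene gcn5 (1.55), the H2B ubiquitin ligase gene brl1 (1.79), the exosome subunit gene csl4 (2.05), upf1 (0.93), rpc2 of RNA polymerase III (1.81), utp15 of rRNA processing (2.13), the nucleoporin gene nup61 (1.83) and the respiratory gene cox6 (2.37). Some of these were lower in sense, with nup61 at −0.69, rpc2 at −0.46 and upf1 at −0.51. Others were not called in sense, such as sad1 (−0.23) and brl1 (−0.24).

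In many antisense-higher genes the convergent neighbour was higher. Of 230 coding genes with higher antisense 111 had a 3′ neighbour that reads towards them, and this neighbour was higher in 61 cases (55%), with a median neighbour fold of 0.42. The neighbour was higher in 21.8% of 435 convergent pairs where antisense was listed but not called, and in 18.2% of 2742 convergent pairs of all coding genes. Where the annotated ends overlap it was higher in 43 of 67 pairs (64.2%), and where they do not overlap in 18 of 44 (40.9%). Within an overlap, reads of the neighbour are counted as antisense reads of the gene.

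Single pairs show the folds of antisense beside those of the neighbour. The polyadenylation factor gene iss1 had antisense of 3.01, and its convergent neighbour cum1, which overlaps it by 745 bases, had a sense fold of 3.51. At SPAC343.20 antisense had 3.30 and the neighbour rds1, which overlaps it by 1712 bases, 3.24. The gene sap1, for an essential DNA-binding protein, lies with all its 2191 bases inside the span of SPCC1672.01 of histidine synthesis, on the other strand. Sense of sap1 had 1.31 and antisense of SPCC1672.01 had 1.30, while sense of SPCC1672.01 had −0.81 and antisense of sap1 had −1.57. At pfl8 the annotated neighbour pdc101 lies 283 bases away and had 0.01.

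**Figure D3:**
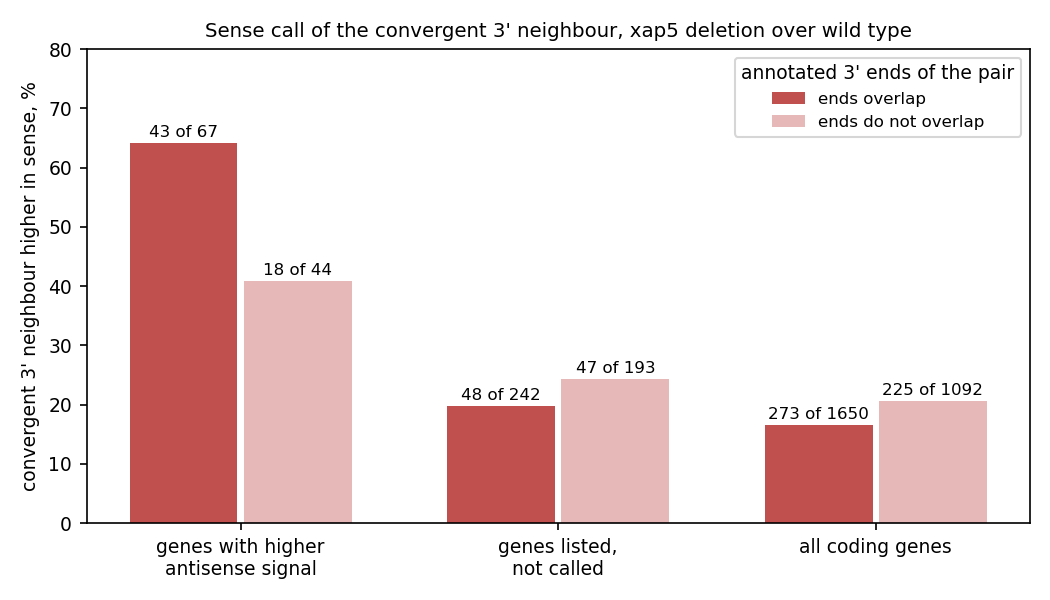
Percentage of convergent 3′ neighbours called higher in sense in the xap5 deletion against wild type (vertical axis), for coding genes with higher antisense, those listed but not called, and all coding genes, by whether the annotated ends overlap. Among genes with higher antisense the bars stand at 64.2% with overlapping ends and at 40.9% without, above those of both other groups.

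Lower antisense was rare and in part lay at chaperone genes that rose. Of the 8 genes with lower antisense, ssa1 (antisense −1.32, sense 2.24), hsp104 (−0.93, sense 2.56) and sap1 were higher in sense. The phosphate transporter gene pho843 (−0.80), the centrin gene cdc31 (−0.74), the glycosylation gene alg2 (−0.73) and the translocation gene sec67 (−0.67) were the others, with SPBC23G7.10c near mat1 (−2.29). In sense, sec67 (−0.38) and SPBC23G7.10c (−1.33) were lower and 3 genes were not called. The median sense fold of all 8 was 0.07. For alg2 and sec67 the overlapping convergent neighbours his3 (−0.97) and rpa49 (−0.62) were lower as well.

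Annotated antisense RNAs that were lower lay over higher genes in most cases. Where the RNA was lower, the coding gene over which it lies was higher in 10 of 16 cases (62.5%), with a median gene fold of 0.86, whereas the gene was higher in 42 of 213 cases (19.7%) where the RNA was higher and in 34 of 165 (20.6%) where the RNA was not called. SPNCRNA.1036 (−0.89) lies over wis2 (3.53), SPNCRNA.1505 (−0.58) over SPBC24C6.09c (3.61) and SPNCRNA.798 (−0.68) over SPAC23C11.06c (1.70). Among the higher RNAs, SPNCRNA.1075 had 4.37, SPNCRNA.997 had 3.09, SPNCRNA.1155 over the checkpoint kinase gene cds1 had 3.00 and SPNCRNA.1438 over cdc2 had 2.57, where cdc2 itself was lower (−0.42).

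LTRs were higher or not called. Among the 117 LTRs of the deposited table, 21 were higher (17.9%) and 0 lower (0%) by the adjusted p that the authors deposited, with 48 higher and 0 lower at an unadjusted p under 0.05, and the median fold was 0.72 with 88.9% above 0. LTRs of the retrotransposon Tf1 were higher in 7 of 38 cases and those of Tf2 in 13 of 71. By surroundings, LTRs whose nearest sense entry was higher were called in 13 of 39 cases (33.3%). Those whose nearest entry was not called were called in 6 of 62 (9.68%), and those whose nearest entry was lower in 2 of 16 (12.5%). The medians were 0.78, 0.71 and 0.715. The 13 are not independent of their neighbours, since for some the nearest entry is the adjoining Tf2 element, such as Tf2-6 and Tf2-10. Others of the 13 lie at the 1 locus described next. By chromosome 14 of 51 were higher on I, 4 of 28 on II and 3 of 38 on III. Of the 117 LTRs 64 have a share of at least 0.1 of their 100-base windows elsewhere in the genome, and for 34 of them all windows recur, so that their reads cannot be told apart. Of the 64, 12 were higher, as were 9 of the other 53.

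The LTRs with the highest folds sit together at 1 locus on chromosome I. Between SPAC27D7.09c (3.69, adjusted p = 6.04e-78) and SPAC27D7.11c (2.75), both of the But2 family, a gap of 4657 bases (I 4524732 to 4529388) was higher by 3.16 (adjusted p = 2.774e-21). The gap holds 5 LTRs, of which 3 were called, with folds of 3.65, 3.33 and 3.05, and the other 2 had 1.86 and 1.91. Both genes lie on the minus strand and share sequence with copies, as do the called LTRs there. Elsewhere an LTR of Tf2 type at II 4414197 to 4414489 had 2.15 (adjusted p = 0.01305), one at I 106349 to 106684 beside the higher gene SPAC11D3.19 had 2.07, and one at III 26343 to 26675 had 1.67 (adjusted p = 0.009682).

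The Tf2 type LTR on chromosome II is printed as an example of a called repeat, on the plus strand of ASM294v3, with TATAAA, the letters of a TATA box, in capitals. TATAAA, searched on the strand given for the LTR, or on the plus strand where none is given, was in 12 of the 21 higher LTRs (57.1%) and in 67 of the 96 others (69.8%).
Tf2 type LTR: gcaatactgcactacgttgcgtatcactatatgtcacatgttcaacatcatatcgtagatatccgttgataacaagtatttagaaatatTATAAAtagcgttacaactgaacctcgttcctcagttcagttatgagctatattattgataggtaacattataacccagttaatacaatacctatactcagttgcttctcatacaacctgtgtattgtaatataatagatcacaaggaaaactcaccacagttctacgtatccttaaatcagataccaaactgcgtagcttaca

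The deposited intergenic table holds 6121 regions, and 3314 of them coincide base for base with introns of the reference annotation. The remaining 2807 are gaps between entries or pieces of entries. Of these 116 were higher (4.13%) and 24 lower (0.855%), with a median fold of 0.20. The sources used here do not say on which strand these regions were counted.

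Gaps between divergent genes, which hold the promoters of both, were higher in a larger share of cases than other gaps. Of 501 divergent gaps 39 were higher (7.78%, median 0.46), of 1169 tandem gaps 34 (2.91%, median 0.15) and of 508 convergent gaps 17 (3.35%, median 0.06). Divergent gaps are longer, but their share was the highest also among gaps of 500 to under 1000 bases, with 7.89% divergent (15 of 190), 2.49% tandem (6 of 241) and 4.44% convergent (2 of 45). At 1000 bases or more it was 11% divergent (14 of 127), 7.2% tandem (9 of 125) and 7.14% convergent (2 of 28). Where no adjoining entry was called, 10 of 180 divergent gaps (5.56%), 4 of 390 tandem gaps (1.03%) and 3 of 154 convergent gaps (1.95%) were higher.

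**Figure D4:**
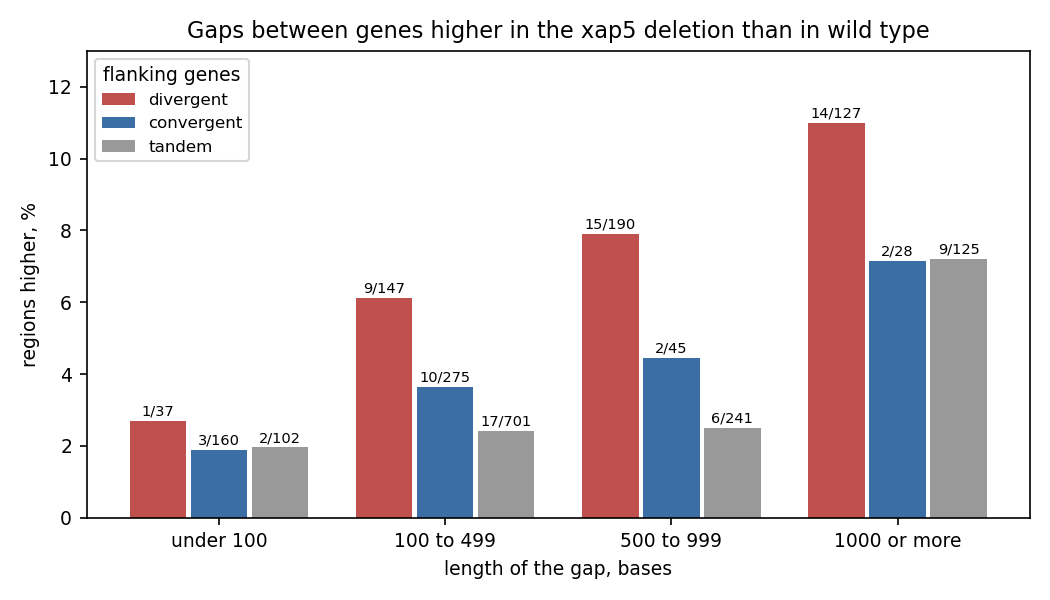
Percentage of gaps called higher in the xap5 deletion against wild type, by gap length and by the orientation of the genes on both sides. Divergent gaps lie above the others in every length class, at 11% for gaps of 1000 bases or more.

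The highest gaps often flank a higher gene. The gap before the hexose transporter gene ght3 (I 82346 to 82745) had 5.11, beside 2.80 for ght3 itself. The gap between the centromere protein gene cbh1 and the pyridoxal reductase gene plr1 (I 4461223 to 4461696) had 4.23, beside 1.52 for plr1 and 0.11 for cbh1. Between tda1 and the thiazole synthesis gene thi2 (II 3938708 to 3939226) it had 4.08, beside −0.85 and 1.18. Other gaps were higher between genes that were not, such as III 479093 to 479643 (3.31) between vps3 (0.15) and coy1 (−0.17), and III 814709 to 815086 (3.44) between fil1 (−0.24) and gir2 (−0.64). A long gap without a called neighbour was I 2981840 to 2984438, of 2599 bases, with 2.76, between SPAPB1A11.02 and the predicted transcription factor gene mca1. The gene mca1 reads towards this gap on its own strand, and its antisense signal had 2.87.

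Lower gaps were fewer, and several lay beside lower genes. Apart from those at the mating-type genes, II 85632 to 87726 (−1.81) adjoins the arylsulfatase gene SPBPB10D8.02c (−2.06), and I 5543032 to 5543363 (−1.99) lies between SPAC186.06 (−1.84) and SPAC186.08c (3.45). The gap of 1764 bases between cut6 for acetyl-CoA carboxylase and snd2 (I 1253560 to 1255323) had −1.50. Over all regions outside introns, gaps and pieces of entries alike, 8 of 157 within 100 kb of a chromosome end were higher (5.1%) and 6 lower (3.82%), and farther in 108 of 2650 were higher (4.08%) and 18 lower (0.679%).

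Introns as a whole had a median fold near 0, and few were called. Of 3314 introns 46 were higher (1.39%) and 18 lower (0.543%), with a median fold of 0.03. The higher introns had a median length of 104 bases against 58 for all introns, and the part of length, with which reads per intron grow, was not tested. All 46 begin with GT and end with AG, as spliced introns do, and the frequent 5′ splice site GTATGT was in 26.1% of them and in 21.1% of all introns. Introns of genes that were higher were called in 26 of 438 cases (5.94%), those of genes not called in 17 of 2015 (0.844%) and those of lower genes in 2 of 855 (0.234%). The 45 higher introns with a sense entry of their gene had a median of 1.66 beside 0.76 for the gene. They were chosen by their own fold, which favours a difference in this direction. Over all 3308 introns with a sense entry of their gene, the median difference between intron and gene was 0.097.

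In 20 of the higher introns the gene was not higher or had no sense entry. Intron 3 of rad26, a checkpoint gene, had 2.93 beside −0.26 for the gene, and the gene also had higher antisense (2.29). Intron 1 of ham1, for an enzyme that removes altered nucleotides, had 2.70 beside −0.39 for the gene, which was lower. For intron 2 of klp3 the fold was 2.64 beside 0.08, with antisense of 1.95. Antisense of the gene was listed for 6 of the 20 introns and was higher for 5 of these, introns 2 and 3 of SPCC1020.13c among them. For the 26 introns in higher genes it was listed for 4 and higher for all 4, introns 1 and 2 of SPBPB21E7.11 among them. Since the strand is not given, reads from an unspliced transcript and antisense reads cannot be told apart. Of the 18 lower introns 15 lie in lower genes, xap5 and mfm2 among them.

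**Figure D5:**
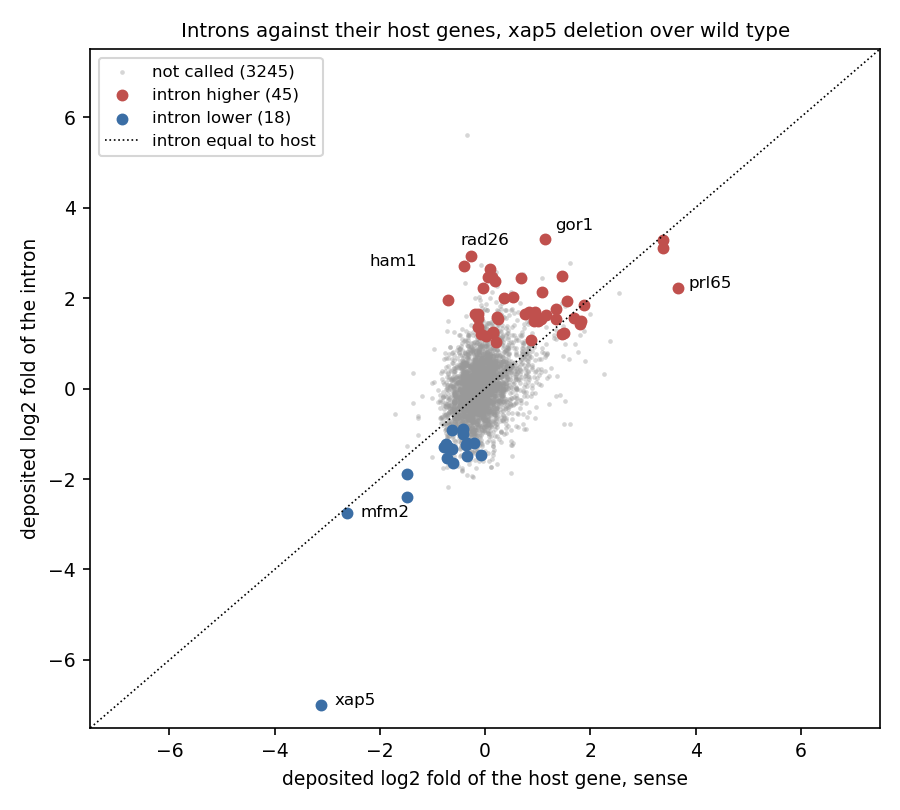
Log2 fold of each intron (vertical axis) against that of its gene in sense (horizontal axis), xap5 deletion over wild type, for the introns of the deposited intergenic table. Called higher introns, which were chosen by their own fold, have a median of 1.66 where their genes have 0.76. The intron of xap5 is the lowest point at −7.00.

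Of these introns 4 are printed 5′ to 3′ on the strand of the gene, with the first 6 and the last 3 bases, the splice sites, in capitals. They are the deleted one of xap5 (III 755406 to 755468, plus strand), intron 2 of gor1 for a glyoxylate reductase (I 2891259 to 2891309, minus strand), which had the highest called fold of an intron (3.31) beside 1.14 for the gene, and those of rad26 (I 4452586 to 4452640, plus strand) and ham1 (III 2201525 to 2201628, plus strand). The introns of xap5, gor1 and ham1 begin with the same 6 bases.
xap5 intron 1: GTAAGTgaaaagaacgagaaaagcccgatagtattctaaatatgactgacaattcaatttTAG
gor1 intron 2: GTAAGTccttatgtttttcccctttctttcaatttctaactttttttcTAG
rad26 intron 3: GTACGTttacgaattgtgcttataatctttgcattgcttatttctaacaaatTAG
ham1 intron 1: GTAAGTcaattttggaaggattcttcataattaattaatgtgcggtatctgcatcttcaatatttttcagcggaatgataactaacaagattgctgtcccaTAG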

How the data were processed

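Each of the 7 libraries is a sample of total RNA, 3 of the xap5 deletion and 4 of wild type. The authors deposited 4 tables of comparisons, in which each feature has a log2 fold change and a p-value, which is also listed after adjustment for multiple tests. The table headers read logFC, and base 2 is the convention of edgeR, which the authors named. Per the submitters' processing notes, the authors used BWA 0.5.8c and edgeR. The role of each tool and the normalization behind the folds are not given in the sources used here. Ensembl EF2.12 is named as annotation in a table header. Of the p-values deposited for sense entries, 18 exceed 1 in this comparison and were kept as deposited.

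The stated mean is 11.8 M reads per library. The depth of single libraries is unknown, so counting intervals could not be made. The labels do not say whether libraries came from separate cultures, so the p-values stand for a spread between libraries that may be technical.

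Calls are the deposited adjusted p under 0.05, with no test added. Of 5747 sense entries, 5639 matched the RefSeq annotation (ASM294v3), which gave coordinates, introns, neighbours and promoters. A log2 fold past 20 stands for a group without reads. Intergenic starts are printed 1 base above the deposited start. Entries were marked as uncertain (803 in all) on any of 3 grounds. At least 10% of their 100-base windows occur elsewhere (share 0.1), they overlap another entry on the same strand, or they did not match the RefSeq annotation. Work used Python 3.11.15, pandas 2.3.3, numpy 2.4.6 and matplotlib 3.10.9, and counting and adjustment were tested on simulated data.

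The members, the 46 gene lists and the tests were chosen with earlier results of these data known. Named sense features are the 15 highest and 15 lowest called folds and, per list, the 4 called members with the smallest adjusted p. Named antisense features are the 15 highest and 10 lowest called folds and 2 per list. For LTRs these are the 6 highest and 6 lowest, and for intergenic regions the 10 highest, the 10 lowest and the 5 longest called in each direction. Printed promoters are of the called list member with the most extreme fold whose motif lies outside other annotated genes. Other named features, the runs of adjacent genes and the split of the intergenic table into introns and gaps were chosen after their values were seen. Alternatives were other thresholds, a minimum fold, another adjustment, and leaving out shared or overlapping features. A list of periodic genes and the motifs that go with it are not reported here.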

Additional observations from a re-analysis of the deposited data

How the results depend on the processing

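With a minimum change of 1 on the log2 scale, sense calls were 473 higher and 60 lower in place of 1213 and 1183, so the near balance of both directions held only without a minimum fold. At an adjusted p under 0.01 they were 935 and 871. At 0.01 the larger direction turned in 3 of the 46 gene lists, transporters (38 higher and 37 lower), cell surface glycoproteins (2 and 1) and kinetochore, spindle and microtubules (3 and 4). With the minimum fold it turned in 5, translation factors (1 and 0), transporters (12 and 10), cell surface glycoproteins (1 and 0), DNA replication and repair (3 and 0) and vesicle traffic (1 and 0). Antisense calls at genes, 237 higher and 8 lower as deposited, were 379 and 14 with Benjamini-Hochberg adjustment over the listed entries alone, and 133 and 3 without entries that share sequence or overlap, where fewer entries were counted. The listed entries had been chosen by their p, so adjustment over them alone is too lenient, and the 379 and 14 are not valid calls. Lower antisense calls were 4 at 0.01 and 3 with the minimum fold. Higher LTR calls, 21 as deposited, were 3 at 0.01, 12 with the minimum fold and 9 without shared sequence. At 0.01 all intergenic regions gave 90 higher and 15 lower calls in place of 162 and 42, introns 22 higher in place of 46 and divergent gaps 24 in place of 39. Antisense-higher genes with a higher convergent neighbour were 18 in place of 61 when pairs with overlapping ends were left out. Of 27 motif shares 25 stayed within 1.5 times when only bases before the gene start were searched. The cause of these differences was not tested where the smaller set does not give it.

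No paired analysis was possible because the tables hold no values per library, and for the same reason leaving out each library was not run. Depth, standard errors and the fit behind the folds were not examined.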
